A study of Mus musculus with 20 samples.

Results

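Messenger RNA levels of glucocorticoid and fasting responsive genes were examined in sorted mouse dermal fibroblasts from 4 groups of 5 female mice. The set names 10 genes: Nr3c1, Hsd11b1, Fkbp5, Tsc22d3, Zbtb16, Sgk1, Klf9, Mt1, Mt2 and Txnip. Affymetrix probe sets annotated to exactly 1 of these genes were taken, and each gene was read from its brightest probe set, judged by the mean of the 20 arrays. By this rule 9 of the 10 genes were measured, among 17097 genes in all, and they were covered by 24 probe sets. Mt2 was matched by no probe set of the annotation used here and is not analysed here.

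The Young ND group were mice of 4 weeks that received normal diet (ND) at will for 4 weeks, and it is not given in the sources used here whether their age refers to the start or the end of that feeding. The other mice entered the diets at 9 months and were killed at 18 months. Old ND mice ate normal diet at will for those 9 months. Old CR mice ate normal diet for 2 months and then 30% less for 7 months, so they were under caloric restriction (CR) when the skin was taken. Old CR-ND mice had the same 7 months of 30% restriction first and 2 months of normal diet afterwards. Young ND and Old ND therefore differ in age and in time on the diet, and only Old CR was restricted at collection. The strain, the time of the last meal and the hour of collection are not given in the sources used here.

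Glucocorticoids are adrenal steroids that rise with stress, with fasting and at the start of the active phase of the day. They bind the glucocorticoid receptor, a transcription factor held in the cytoplasm by chaperones until the hormone arrives, and the receptor then enters the nucleus, induces genes such as Fkbp5 and Tsc22d3, and lowers many inflammatory genes. In skin, dermal fibroblasts carry the receptor and the enzyme that activates the hormone locally, and long exposure to glucocorticoids is known to thin the dermis.

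All mice shared the same cell preparation: collagenase digestion of the dermis, a sort of Pdgfra+ CD34+ cells that lacked EpCam, CD24, CD31, CD45 and CD117, and amplification of the RNA before hybridisation. Values are log2 levels as normalized by the submitters, so a difference of 1 is a doubling, and the median gene had a level of 5.88. Probe sets differ in brightness, so levels of different genes do not show which is more abundant. Array medians lay between 5.27 and 5.34. The fibroblast genes averaged 10.60 to 10.88 over 10 markers on all arrays. Against Young ND, 3 of these 10 were lower in Old ND (Cd34, Col1a1 and Col3a1) and 3 in Old CR (Col1a1, Col3a1 and Thy1). Between Old CR and Old ND 0 passed. Of all genes, 10.9%, 12.7% and 2.39% passed in these comparisons, in that order. Pdgfra, a positive sorting marker, lay at group means of 5.71 to 6.20. The 5 genes of the markers sorted against averaged 4.72 to 4.98 on the Young ND arrays, 4.40 to 4.73 in Old ND, 4.33 to 4.49 in Old CR and 4.41 to 4.70 in Old CR-ND. One of them was called, Cd24a, which was lower than in Young ND (6.73) in Old ND (5.56, adjusted p = 0.000691), in Old CR (4.83, adjusted p = 3.76e-06) and in Old CR-ND (5.43, adjusted p = 0.000455, limma), while Ptprc, the gene of CD45, lay at 3.24 to 3.26 in the 4 groups. Keratinocyte genes were present and uneven, with an average over 9 markers of 6.12 to 7.41 on the Young ND arrays, 5.74 to 8.23 on the Old ND arrays, 6.54 to 7.26 on the Old CR arrays and 6.63 to 7.76 on the Old CR-ND arrays. The part of these markers in the results below, comparisons with Young ND among them, was not tested. The sample titles carry numbers in 2 separate ranges, called runs here, with 13 arrays in run 1 and 7 in run 2. The labels do not say what these ranges stand for. Between the runs 2934 genes (17.2%) differed. Old CR had 4 arrays in run 1 and 1 in run 2, and each other group had 3 and 2. These are levels in sorted bulk samples, so fewer cells of a type and less RNA per cell cannot be told apart.

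Promoter sequence was available for 8 of the 10 genes from RefSeq on the build GRCm38.p6, with 15 start sites between them. The 4 windows that bear on the genes described most fully are shown as the 250 bases before the start, 5′ to 3′ on the strand of the gene, with matches to the motifs searched in capitals. Sgk1 and Txnip are shown because each holds a motif that few other promoters hold, Mt1 because it is the metallothionein that was measured, and Fkbp5 because it was called in the most comparisons. The Fkbp5 window is chr17:28486150-28486399 on the minus strand, the Sgk1 window (start 5 of 6) is chr10:21993640-21993889 on the plus strand, the Txnip window is chr3:96557707-96557956 on the plus strand, and the Mt1 window is chr8:94178839-94179088 on the plus strand.
Fkbp5: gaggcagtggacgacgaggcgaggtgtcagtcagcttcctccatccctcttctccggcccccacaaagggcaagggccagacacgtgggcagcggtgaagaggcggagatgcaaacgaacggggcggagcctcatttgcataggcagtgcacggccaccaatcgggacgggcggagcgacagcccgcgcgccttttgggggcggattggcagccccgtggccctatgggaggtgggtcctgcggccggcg
Sgk1: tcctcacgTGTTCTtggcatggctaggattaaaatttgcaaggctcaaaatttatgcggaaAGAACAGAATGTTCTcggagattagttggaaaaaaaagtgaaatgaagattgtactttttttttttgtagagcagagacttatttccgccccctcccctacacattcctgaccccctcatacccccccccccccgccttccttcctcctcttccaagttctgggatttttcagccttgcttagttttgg
Txnip: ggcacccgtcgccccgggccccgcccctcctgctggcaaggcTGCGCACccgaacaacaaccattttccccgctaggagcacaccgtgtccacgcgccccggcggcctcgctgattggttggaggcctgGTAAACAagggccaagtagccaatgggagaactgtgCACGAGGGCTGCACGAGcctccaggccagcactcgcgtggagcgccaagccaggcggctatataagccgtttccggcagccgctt
Mt1: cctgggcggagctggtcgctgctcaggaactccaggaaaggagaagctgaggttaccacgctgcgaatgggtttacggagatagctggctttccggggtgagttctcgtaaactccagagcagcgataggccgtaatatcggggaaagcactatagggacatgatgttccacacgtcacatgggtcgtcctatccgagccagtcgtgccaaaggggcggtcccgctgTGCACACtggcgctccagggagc

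The full glucocorticoid response element was searched as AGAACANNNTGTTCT, its half-site as AGAACA, the metal response element as TGCACNC or TGCGCNC, the carbohydrate response element as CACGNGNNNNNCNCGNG and the FOXO element as GTAAACA, each on both strands. The half-site lies inside the full element, so a full match also counts as half-site matches. A full glucocorticoid response element stood in the Sgk1 window as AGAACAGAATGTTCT, beginning 189 bases before the start, and in 3 of all 32817 promoter windows of this length (0.00914%). The Txnip window held the carbohydrate response element, which MondoA and its partner Mlx are known to bind, as CACGAGGGCTGCACGAG from 85 bases before the start, against 0.28% of all windows. The Txnip window also held a FOXO element 121 bases before the start (3.16% of all windows) and a metal response element 208 bases before it (21.4% of all windows). The Mt1 window held a metal response element, TGCACAC, 23 bases before the start, and the Fkbp5 window held no match to these letters. The start used for Mt1 lies inside the annotated gene (chr8:94178883-94180327). Most of the Mt1 window is thus within the gene, and most of the sequence upstream of the gene was not searched. Half-sites occurred in 16.1% of all windows and, among these genes, in 1 window of Tsc22d3 and 3 of Sgk1. A match is a string of letters and not a measured binding site.

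Across the set, Fkbp5 was called most often. It was higher in each of the 3 old groups than in Young ND, and Txnip was higher in Old CR than in Young ND. These comparisons share the same Young ND mice. In Old ND against Young ND, 1 of the 9 measured genes passed an adjusted p of 0.05 (limma over all genes with Benjamini-Hochberg adjustment), a share of 11.1%, while 10.9% of all genes did, so the share of the set was that of the array. The median change over the 9 genes was 0.26 against 0.002 over all genes, with 5 of the 9 higher in Old ND. The comparisons of Old ND with Young ND and of Old CR with Old ND share the Old ND mice. In Old CR against Old ND, 0 of the 9 genes passed and 2.39% of all genes did, with 3 of the 9 at an unadjusted p under 0.05 (Zbtb16, Mt1 and Sgk1). In Old CR-ND against Old ND, 0 of the 9 passed, where 0.00585% of all genes did, and against Old CR 0 passed, where 0.333% did. At an unadjusted p under 0.05 there were 0 of the 9 in each, and at least 834 and 1673 of all genes, in that order. Against Young ND, 2 of the 9 passed in Old CR (12.7% of all genes) and 1 in Old CR-ND (7.04% of all genes). Any difference between the 4 groups was called for 1 of the 9, with 12.9% of all genes called.

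**Figure D1:**
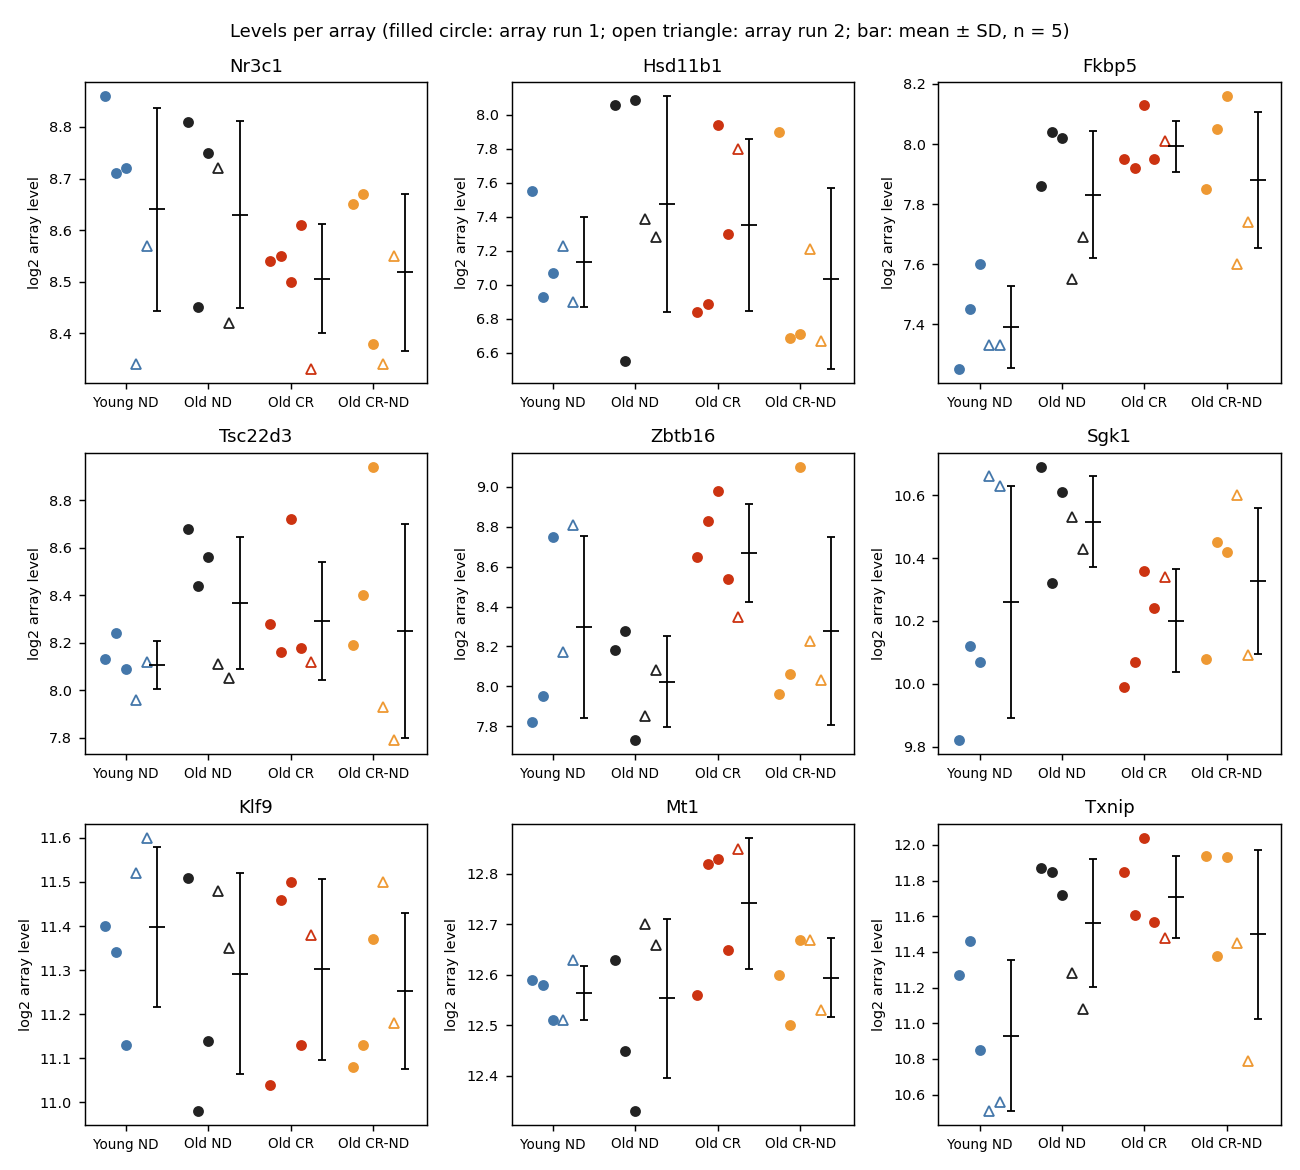
Level of each measured gene on every array (log2, vertical axes not shared) in the 4 groups, with filled circles for run 1, open triangles for run 2, and the mean with SD (n = 5). Fkbp5 is lowest in Young ND, where the arrays lie between 7.25 and 7.60, and all 5 Zbtb16 levels in Old CR (8.35 to 8.98) lie above the highest of Old ND (8.28).

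**Figure D2:**
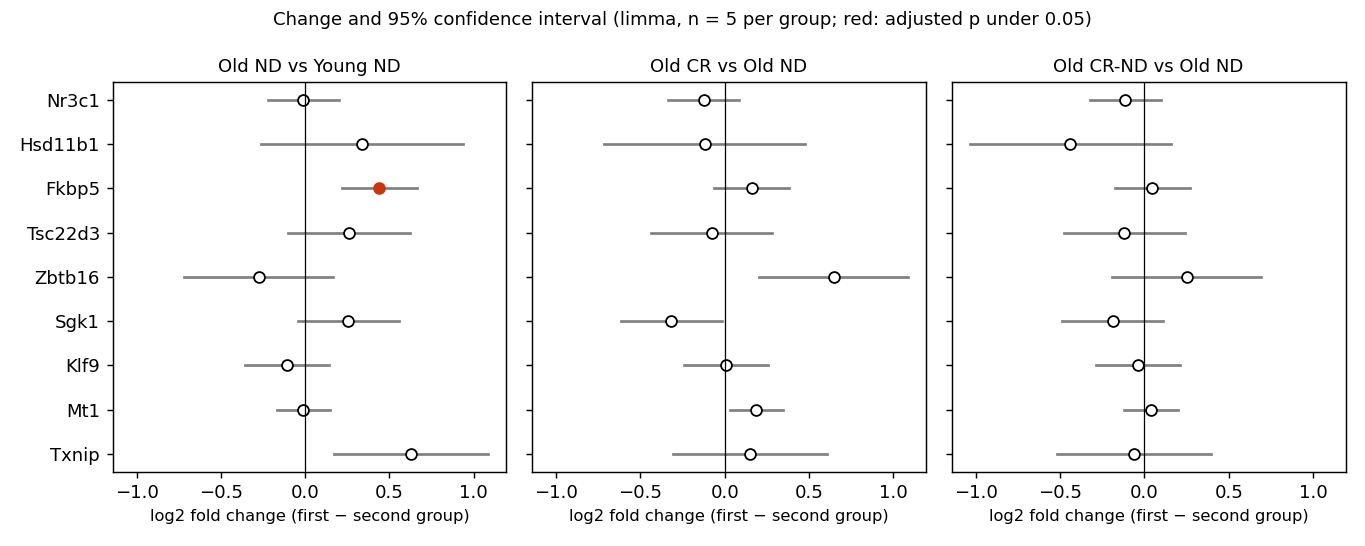
Log2 change of each measured gene with its 95% confidence interval (limma, n = 5 a group) for Old ND against Young ND, Old CR against Old ND and Old CR-ND against Old ND. Only Fkbp5 in the first panel is filled, which marks an adjusted p under 0.05.

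Nr3c1, the glucocorticoid receptor, and Hsd11b1, the enzyme that regenerates active glucocorticoid inside the cell, stand at the head of the pathway. Nr3c1 lay at 8.86, 8.71, 8.72, 8.34 and 8.57 in Young ND and at 8.81, 8.45, 8.75, 8.72 and 8.42 in Old ND. Its levels in Old CR were 8.54, 8.55, 8.50, 8.61 and 8.33, and those in Old CR-ND were 8.65, 8.67, 8.38, 8.34 and 8.55. All 4 groups overlapped. On this brightest probe set the receptor's change with age was -0.01 (95% confidence interval -0.22 to 0.20). That of Old CR against Old ND was -0.12 (-0.33 to 0.09, adjusted p = 0.651 by limma). The group order there, from Young ND at 8.64 through Old ND at 8.63 and Old CR-ND at 8.52 to Old CR at 8.51, had no pair of neighbours that differed beyond the spread. The other Nr3c1 probe sets had means of 8.36, 8.20, 8.25 and 6.73 in Young ND and of 8.42, 8.37, 8.29 and 6.82 in Old ND. Young ND was the highest group on none of them.

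Hsd11b1 varied more between mice than any other gene of the set, with a standard error of 0.29 for each comparison. Its levels were 7.55, 6.93, 7.07, 7.23 and 6.90 in Young ND and 8.06, 6.55, 8.09, 7.39 and 7.28 in Old ND. They were 6.84, 6.89, 7.94, 7.30 and 7.80 in Old CR and 7.90, 6.69, 6.71, 7.21 and 6.67 in Old CR-ND. High and low mice occurred in every group of old mice, and the groups overlapped. The interval for Old CR-ND against Old ND ran from -1.04 to 0.16, so a halving of the level was not resolved from no change with these 5 arrays a group.

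Among the other genes of the receptor complex and of hormone activation, 12 were measured. In Old ND against Young ND 1 rose and 1 fell (median change 0.08), where 10.9% of all genes passed, and in Old CR against Old ND 1 rose (median 0.07), where 2.39% of all genes passed. Against Young ND, 3 of the 12 rose in Old CR (median 0.12), where 12.7% of all genes passed, and 6 had an unadjusted p under 0.05. Nr3c2, the mineralocorticoid receptor, which also binds glucocorticoids, rose from 5.43 ± 0.14 in Young ND to 5.86 ± 0.19 in Old ND (SD, n = 5; change 0.43 ± 0.09 SE, adjusted p = 0.00202, limma). Bag1, a cochaperone of the receptor's Hsp70 complex, fell from 8.66 ± 0.11 in Young ND to 8.16 ± 0.28 in Old ND (change -0.50, adjusted p = 0.00643, limma), and it was higher in Old CR at 8.66 ± 0.12 (change 0.50, adjusted p = 0.0239). The Bag1 call for restriction was lost when any of 5 arrays was left out (Old ND 1 or 3, Old CR 2, 3 or 4), with adjusted p of up to 0.0693. H6pd makes the NADPH that Hsd11b1 uses, and it was higher in Old CR at 7.93 ± 0.19 than in Young ND at 7.22 ± 0.35 (change 0.71 ± 0.14 SE, adjusted p = 0.00131, limma).

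Fkbp5 encodes a cochaperone that lowers the receptor's affinity for its hormone and is among the receptor's strongest targets in many tissues. Its levels were 7.25, 7.45, 7.60, 7.33 and 7.33 in Young ND and 7.86, 8.04, 8.02, 7.55 and 7.69 in Old ND. They were 7.95, 7.92, 8.13, 7.95 and 8.01 in Old CR and 7.85, 8.05, 8.16, 7.60 and 7.74 in Old CR-ND. The young mice were lowest, with the highest Young ND array just above the lowest Old ND array and level with the lowest Old CR-ND array, and no Old CR array came down to the young range.

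Fkbp5 was 1.36-fold higher in Old ND than in Young ND, a change of 0.44 ± 0.11 (SE, adjusted p = 0.00905, limma). It was 1.52-fold higher in Old CR than in Young ND (0.60, adjusted p = 0.000612), where the groups did not overlap, as was so for 10.4% of all genes. It was 1.40-fold higher in Old CR-ND than in Young ND (0.49, adjusted p = 0.00605). Among the old groups, Fkbp5 in Old CR differed from Old ND by 0.16 (95% confidence interval -0.06 to 0.38, adjusted p = 0.551), and in Old CR-ND by 0.05 (-0.18 to 0.27, adjusted p = 0.998). The order was Old CR at 7.99, Old CR-ND at 7.88, Old ND at 7.83 and Young ND at 7.39, and only the step from Old ND to Young ND passed the test.

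The rise of Fkbp5 with age passed with any 1 array left out, with an adjusted p of 0.00322 to 0.0287. Fkbp5 was lower in run 2 than in run 1 by 0.22 (change -0.22 ± 0.07 SE, adjusted p = 0.0275). With run as a block the age change was the same 0.44 (adjusted p = 0.00129), within run 1 it was 0.54 (adjusted p = 0.0071), and within run 2, which held 2 arrays of each of these groups, it was 0.29 (adjusted p = 0.259). A second Fkbp5 probe set moved alike, from 6.69 ± 0.14 in Young ND to 7.08 ± 0.12 in Old ND (SD, n = 5; change 0.39, adjusted p = 0.0111 over all probe sets), while the third lay at 3.87 in Young ND and 3.83 in Old ND.

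Tsc22d3 encodes GILZ, a leucine zipper protein that carries part of the anti-inflammatory action of glucocorticoids. Its levels were 8.13, 8.24, 8.09, 7.96 and 8.12 in Young ND and 8.68, 8.44, 8.56, 8.11 and 8.05 in Old ND. They were 8.28, 8.16, 8.72, 8.18 and 8.12 in Old CR and 8.19, 8.40, 8.94, 7.93 and 7.79 in Old CR-ND. The 3 high Old ND mice were those of run 1, and the 2 low ones, like the 2 lowest Old CR-ND mice, were those of run 2. Over all groups Tsc22d3 was lower in run 2 than in run 1 by 0.38 (change -0.38 ± 0.10 SE, adjusted p = 0.0123). On this probe set the change with age was 0.26 ± 0.17 (SE, adjusted p = 0.410, limma), with an interval from -0.10 to 0.62 that includes the change of Fkbp5. The second Tsc22d3 probe set lay at 7.48 ± 0.29 in Young ND and 7.93 ± 0.33 in Old ND (SD, n = 5). The third lay at 7.04 ± 0.06 and 7.26 ± 0.13, and on both the 2 groups overlapped. The order of means on the brightest probe set was Old ND at 8.37, Old CR at 8.29, Old CR-ND at 8.25 and Young ND at 8.11, with no neighbours that differed.

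Zbtb16 encodes PLZF, a zinc finger repressor that is induced late and strongly by glucocorticoids in several cell types. Its levels were 8.18, 8.28, 7.73, 7.85 and 8.08 in Old ND and 8.65, 8.83, 8.98, 8.54 and 8.35 in Old CR. All 5 restricted mice were above all 5 Old ND mice, as was so in either direction for 3.23% of all genes. In Young ND it lay at 7.82, 7.95, 8.75, 8.17 and 8.81 and in Old CR-ND at 7.96, 8.06, 9.10, 8.23 and 8.03, so 2 young mice and 1 refed mouse reached the range of the restricted group.

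The difference of Zbtb16 between Old CR and Old ND was 0.65 ± 0.21 (SE, 1.57-fold), with an adjusted p of 0.121 by limma, and so it did not pass. When only those 2 groups entered the fit, whose Zbtb16 levels varied less than those of the other groups, the adjusted p was 0.0426. Within run 1 the difference was 0.69 and within run 2 0.39, where Old CR had 1 array. The second Zbtb16 probe set differed by 0.53 ± 0.21 (SE, adjusted p = 0.228 over all probe sets), and there Old CR (7.07 to 8.11) and Old ND (6.76 to 7.59) overlapped. Old CR-ND lay 0.39 below Old CR (interval for the change -0.84 to 0.05), which did not pass.

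Sgk1, a kinase that controls sodium channels and that is induced by both glucocorticoids and mineralocorticoids, held the full response element shown above. Its levels were 9.82, 10.12, 10.07, 10.66 and 10.63 in Young ND and 10.69, 10.32, 10.61, 10.53 and 10.43 in Old ND. They were 9.99, 10.07, 10.36, 10.24 and 10.34 in Old CR and 10.08, 10.45, 10.42, 10.60 and 10.09 in Old CR-ND. The young mice split by run, with the 3 of run 1 below all Old ND mice and the 2 of run 2 among them.

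Sgk1 was higher in Old ND than in Young ND by 0.26 ± 0.14 (SE, adjusted p = 0.310, limma). Within run 1 that difference was 0.54 (adjusted p = 0.0257), and within run 2 it was -0.17 (adjusted p = 0.735), so the direction turned between the runs. Old CR lay 0.32 below Old ND (interval for the change -0.62 to -0.02), the opposite side from Zbtb16, at an adjusted p of 0.309. The order was Old ND at 10.52, Old CR-ND at 10.33, Young ND at 10.26 and Old CR at 10.20, with no neighbours that differed.

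Klf9 encodes a Krüppel-like repressor that follows both glucocorticoid pulses and the clock. Its levels ran from 11.13 to 11.60 with a median of 11.40 in Young ND, from 10.98 to 11.51 with a median of 11.35 in Old ND, from 11.04 to 11.50 with a median of 11.38 in Old CR, and from 11.08 to 11.50 with a median of 11.18 in Old CR-ND. The ranges lay on top of each other. On this probe set the change in Old CR against Old ND was 0.01 with an interval from -0.24 to 0.26. The other 4 Klf9 probe sets were less even, with changes from -0.26 to 0.21 in that comparison and standard errors of up to 0.29, and from -0.26 to 0.23 in Old ND against Young ND, and none passed in either.

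Mt1 encodes a metallothionein, a small zinc-binding protein whose gene is induced by zinc, by glucocorticoids and by fasting. The probe set chosen by the rule lay between 12.33 and 12.85 in all 20 mice. Its group means were 12.56 in Young ND, 12.55 in Old ND, 12.74 in Old CR and 12.59 in Old CR-ND, and the largest pairwise difference, 0.19 in Old CR against Old ND (interval 0.03 to 0.35), had an adjusted p of 0.234. The highest value anywhere in the data was 13.46, and whether this probe set can still follow a change at that brightness was not tested. Its suffix (s_at) is the maker's mark for a probe set that can match more than one transcript.

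The other Mt1 probe set moved. It read 9.12, 9.44, 9.98, 9.18 and 9.68 in Young ND and 9.93, 10.09, 9.73, 10.53 and 10.37 in Old ND. It read 10.51, 10.61, 10.91, 10.94 and 10.96 in Old CR and 10.39, 9.76, 10.70, 10.27 and 10.28 in Old CR-ND. Every Old CR mouse was above every young mouse and all but 1 Old CR mouse were above every Old ND mouse. Old CR-ND lay between Old ND and Old CR on average. In either direction, Old CR and Young ND did not overlap for 10.4% of all genes on their brightest probe sets. That share was not counted over all probe sets.

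On this probe set Mt1 was 2.47-fold higher in Old CR than in Young ND (change 1.31 ± 0.18 SE, adjusted p = 6.27e-05, limma over 28898 probe sets, of which 12.2% passed), and it passed with any 1 array left out (adjusted p of up to 0.000324). In Old ND against Young ND it was 1.57-fold higher (0.65, adjusted p = 0.0239, with 10.7% of probe sets called), a call that was lost when any of 5 arrays was left out (Young ND 1, 2 or 4, Old ND 4 or 5; adjusted p 0.0528 to 0.0679). In Old CR against Old ND it was 1.58-fold higher by 0.66, with an adjusted p of 0.0647 where 2.13% of probe sets passed. That difference passed with run as a block (0.69, adjusted p = 0.0356, with 3.68% of probe sets called) and without Old ND 4 (adjusted p = 0.035). It moved away from the threshold without Old ND 1 (0.61, adjusted p = 0.141, limma) and without Old CR 1 (adjusted p = 0.0687). Old CR-ND lay 0.80 above Young ND (adjusted p = 0.00934, with 6.54% of probe sets called) and 0.51 below Old CR (change -0.51, adjusted p = 0.321). Mt1 and Mt2 are close copies, and whether either probe set also binds Mt2 transcripts was not tested.

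**Figure D3:**
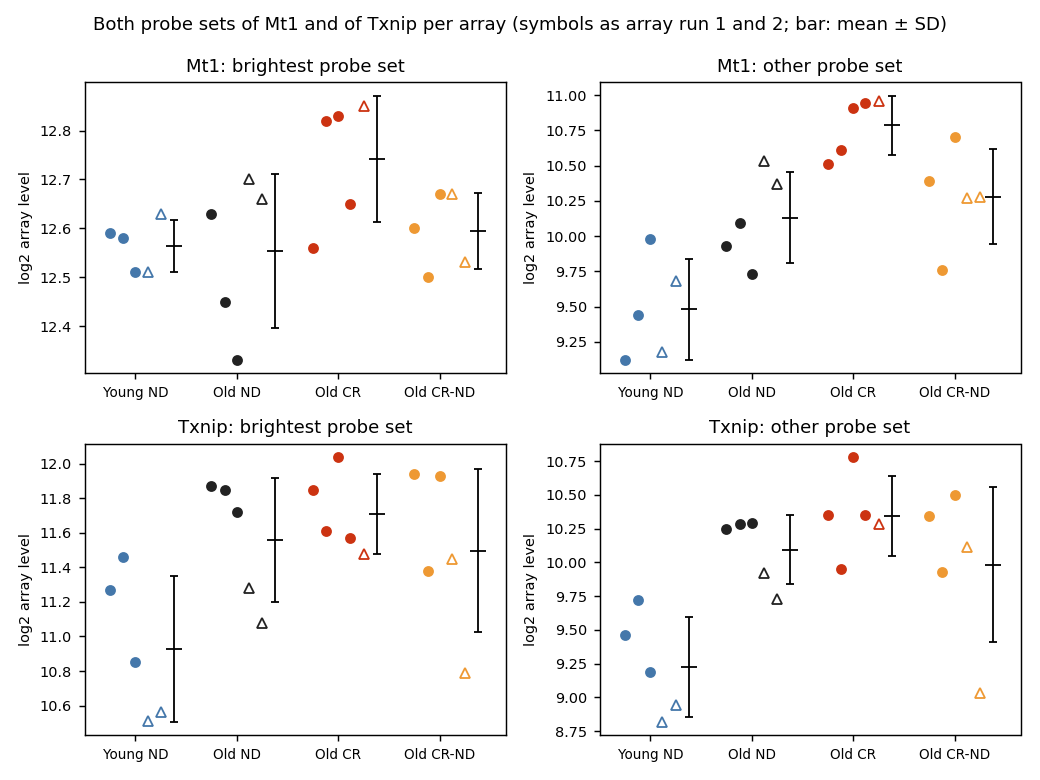
Level on every array (log2) for both probe sets of Mt1 and both of Txnip in the 4 groups, with filled circles for run 1, open triangles for run 2, and the mean with SD (n = 5). The brightest Mt1 probe set spans 12.33 to 12.85 over all mice, while the other climbs from a mean of 9.48 in Young ND to 10.79 in Old CR.

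Of the genes around the metallothioneins, zinc and copper transporters and their regulators, 21 were measured. In Old ND against Young ND 1 rose and 7 fell, with a median change of -0.14, where 10.9% of all genes passed. Of the 21, 0 passed in Old CR against Old ND in limma, with 3 at an unadjusted p under 0.05, where 2.39% of all genes passed, and 1 rose when all probe sets were averaged or within run 1. The 2 comparisons share the Old ND mice, and the difference between them was not tested. Slc39a8, the ZIP8 importer of zinc, rose from 5.80 ± 0.14 in Young ND to 6.85 ± 0.41 in Old ND (change 1.04 ± 0.16 SE, adjusted p = 0.000176, limma). Slc39a14, the ZIP14 importer, was at 8.94 in Old ND and 9.62 in Young ND (change -0.68, adjusted p = 0.000328), and Slc30a6, a zinc transporter of the Golgi, fell too (change -0.67, adjusted p = 0.000554). The calls of 2 of the 7 that fell, Slc30a5 and Slc39a13, were lost when 1 of several arrays was left out.

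Txnip encodes an inhibitor of thioredoxin and of glucose uptake, and it is induced by glucose through MondoA as well as by glucocorticoids. Its levels were 11.27, 11.46, 10.85, 10.51 and 10.56 in Young ND and 11.87, 11.85, 11.72, 11.28 and 11.08 in Old ND. They were 11.85, 11.61, 12.04, 11.57 and 11.48 in Old CR and 11.94, 11.38, 11.93, 11.45 and 10.79 in Old CR-ND. In Young ND, Old ND and Old CR the arrays of run 2 were the lowest of their group. No Old CR mouse lay within the young range, and Old CR and Young ND did not overlap for 10.4% of all genes. Within the young range lay 2 Old ND mice and 3 Old CR-ND mice.

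Txnip was 1.72-fold higher in Old CR than in Young ND (change 0.78 ± 0.22 SE, adjusted p = 0.0213, limma), a call lost when Old CR 1, Old CR 3, Young ND 4 or Young ND 5 was left out (adjusted p 0.0511 to 0.0663). In Old ND it was 1.55-fold higher than in Young ND, by 0.63, and this missed the threshold at an adjusted p of 0.0729. Txnip was lower in run 2 than in run 1 (change -0.58 ± 0.11 SE, adjusted p = 0.000993), and with run as a block the rise in Old ND passed with the same size (0.63, adjusted p = 0.00348, where 15% of all genes passed), as did that in Old CR-ND (0.57, adjusted p = 0.0109 against 0.141 without the block, where 10.3% of all genes passed with it). The differences in Old ND against Young ND were 0.62 within run 1 (adjusted p = 0.0461) and 0.65 within run 2 (adjusted p = 0.0832). The second Txnip probe set rose by 0.87 ± 0.23 in Old ND (SE, adjusted p = 0.0156 over all probe sets) and by 1.12 in Old CR (adjusted p = 0.00228), each against the young mice. Between Old CR and Old ND, Txnip differed by 0.15 (interval -0.31 to 0.61, adjusted p = 0.837).

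Txnip's network of thioredoxins, MondoA, Mlx and glucose transporters counted 13 measured genes. With age 0 rose and 1 fell, where 10.9% of all genes passed. For Old CR against Old ND 0 passed, where 2.39% of all genes did, and 4 of the 13 had an unadjusted p under 0.05. Arrdc3, a paralogue of Txnip, was 0.78 higher in Old CR than in Young ND (8.86 against 8.08, adjusted p = 0.00986, limma). Against Old ND its difference of 0.61 had an adjusted p of 0.113. Mlx, the partner of MondoA, differed by 0.47 between Old CR and Old ND (adjusted p = 0.0823). Hk2, a hexokinase, was lower in Old CR than in Young ND (7.15 against 8.16, adjusted p = 0.00522).

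Of 24 other genes that glucocorticoids induce, 3 rose and 0 fell in Old ND against Young ND, where 10.9% of all genes passed, and the median change was -0.002. With restriction, Old CR against Old ND, 1 rose and 0 fell, where 2.39% of all genes passed, with a median of 0.05. Cdkn1c, the cell cycle inhibitor p57, rose from 7.07 ± 0.19 in Young ND to 7.72 ± 0.25 in Old ND (adjusted p = 0.000902, limma) and lay at 8.12 ± 0.14 in Old CR. Rgs2, a brake on G protein signalling, rose from 9.17 ± 0.13 to 9.78 ± 0.42 (adjusted p = 0.0127). Ddit4, the mTORC1 inhibitor REDD1, rose from 6.60 ± 0.23 in Old ND to 7.31 ± 0.33 in Old CR (change 0.71 ± 0.16 SE, adjusted p = 0.0193), a call lost without Old CR 3 or Old CR 4 (adjusted p of up to 0.0613).

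Inflammatory genes that glucocorticoids are known to repress included 3 of 18 that were lower in Old CR than in Old ND, with 0 higher, where 2.39% of all genes passed, and their median change was -0.10 against 0.004 over all genes. Cxcl2, a neutrophil chemokine, was at 4.83 ± 0.51 in Young ND, 6.24 ± 0.89 in Old ND, 4.33 ± 0.46 in Old CR and 5.47 ± 0.16 in Old CR-ND. It rose with age (change 1.41 ± 0.32 SE, adjusted p = 0.00585, limma) and was lower under restriction (change -1.91 ± 0.32 SE, adjusted p = 0.00361), 2 comparisons that share the same Old ND mice. Vcam1, an adhesion receptor for leukocytes, was lower in Old CR at 6.41 ± 0.48 than in Old ND at 7.69 ± 0.43 (adjusted p = 0.0199, lost without Old CR 1, Old CR 4 or Old ND 1, up to 0.0635). Cxcl1, another neutrophil chemokine, was lower by a change of -1.08 (adjusted p = 0.0487), a call lost without any of 8 arrays of these groups. In Old CR-ND, 0 of the 18 passed against Old ND and 0 against Old CR. An unadjusted p under 0.05 was found for 2 and 5 of them, and for at least 834 and 1673 of all genes. In Old CR against Old ND, the 8 macrophage and dendritic markers had the same median change of -0.10 as the 18 inflammatory genes. Of the 8, 4 had an unadjusted p under 0.05 (limma), as did at least 2199 of all genes. These were Cd74, Fcer1g and Adgre1 on the lower side and Csf1r on the higher. Of these only Cd74 passed (6.33 in Old CR against 6.94 in Old ND, adjusted p = 0.0276, limma). Adgre1 and Ptprc lay below 4 in every group, and the average over the list was 5.20 to 5.39 in Old CR and 5.27 to 5.50 in Old ND. The part of such cells in the chemokine levels was not tested.

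Genes of fasting and of FOXO factors, which act when insulin is low, counted 21 measured. Of these 1 rose with age and 1 rose with restriction (median changes 0.05 and 0.09). Of all genes, 10.9% passed with age and 2.39% with restriction. Bnip3, a mitophagy receptor that FOXO3 induces, was 8.82 ± 0.26 in Old CR and 8.00 ± 0.26 in Old ND (change 0.82 ± 0.18 SE, adjusted p = 0.0213, limma). That call was lost without any of 5 arrays (up to 0.062), and the change was 1.10 within run 1 and 0.13 within run 2. Lpin1, a phosphatidate phosphatase and coactivator of fasting genes, rose with age from 6.07 ± 0.31 to 6.70 ± 0.26 (adjusted p = 0.0107) and lay at 6.95 ± 0.22 in Old CR.

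Clock genes and immediate early genes were read because glucocorticoids follow the day and because digestion of tissue is known to induce the latter. Of 13 clock genes, 2 rose (Tef and Hlf) and 2 fell (Clock and Nr1d2) in Old ND against Young ND. In that comparison 10.9% of all genes passed. Only Hlf passed, and was lower, in Old CR against Old ND (6.18 against 6.73, adjusted p = 0.0364, limma). There 2.39% of all genes passed. Clock, the partner of Bmal1, was at 7.94 ± 0.07 in Young ND and 7.31 ± 0.15 in Old ND (adjusted p = 1.26e-05). Of 19 immediate early genes, 3 rose (Egr2, Nr4a2 and Ier3) and 1 fell (Klf6) with age, where 10.9% of all genes passed. Only Egr2 passed, and was lower, in Old CR against Old ND (10.08 against 10.72, adjusted p = 0.0119, limma), where 2.39% of all genes did. Neither list's part in the levels of Fkbp5, Txnip or Mt1 was tested.

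**Figure D4:**
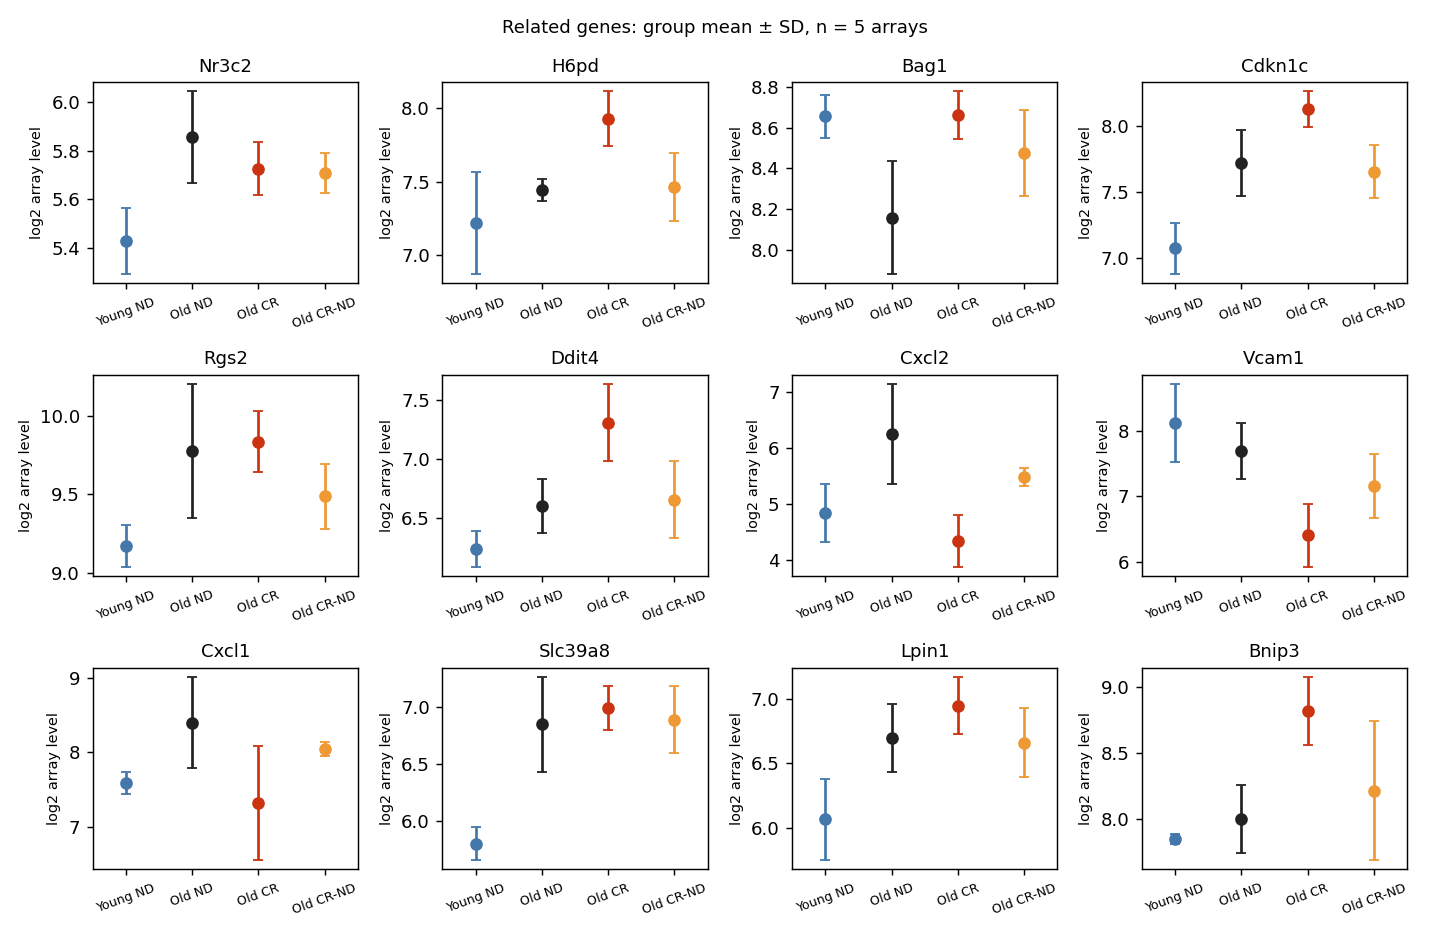
Mean level (log2) with SD (n = 5) in the 4 groups for 12 related genes that passed in at least 1 comparison, vertical axes not shared. Cxcl2 is highest in Old ND (6.24) and lowest in Old CR (4.33), while Ddit4 (7.31) and Bnip3 (8.82) are highest in Old CR.

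Whether mice of one group that were high for one glucocorticoid target were also high for another was asked for the 10 pairs among Fkbp5, Tsc22d3, Zbtb16, Sgk1 and Klf9. After the group means were subtracted, 2 pairs passed over 20 arrays (permutation within groups with 100000 resamples, two-sided, adjusted over the 10 pairs). Fkbp5 and Tsc22d3 had Pearson r = 0.763 (permutation p = 0.0013, adjusted p = 0.013) and Spearman rho = 0.751 (permutation p = 0.00174, adjusted p = 0.0109). Without the 2 arrays farthest from the median of Fkbp5, r was 0.652 (adjusted permutation p = 0.0472). There rho was 0.607 (adjusted permutation p = 0.107), which did not pass. Within run 1 r was 0.542 (13 arrays, permutation p = 0.104) and within run 2 it was -0.64 (7 arrays, permutation p = 0.5), and with the means of group and run subtracted it was 0.457 (adjusted permutation p = 0.271). In run 2, with 8 arrangements within groups, the smallest permutation p was 0.25, so the threshold could not be reached there. The pair was thus not called within run 1 or with run subtracted, where r stayed positive, and r was negative in run 2.

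Sgk1 and Klf9 had r = 0.589 (permutation p = 0.00698, adjusted p = 0.0349) and rho = 0.673 (permutation p = 0.00218, adjusted p = 0.0109), and r = 0.679 without the 2 arrays farthest from the median of Sgk1. Within run 1 r was 0.464 (permutation p = 0.176) and within run 2 it was 0.942 (permutation p = 0.501), positive in both, and with group and run subtracted it was 0.552 (adjusted permutation p = 0.159). Fkbp5 and Sgk1 had r = 0.014 and rho = 0.035 over both runs, with r = 0.532 within run 1 and r = -0.829 within run 2, and 0.261 with group and run subtracted. Fkbp5 was lower in run 2 (change -0.22) and Sgk1 was not called between the runs (change 0.20, adjusted p = 0.191, limma).

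**Figure D5:**
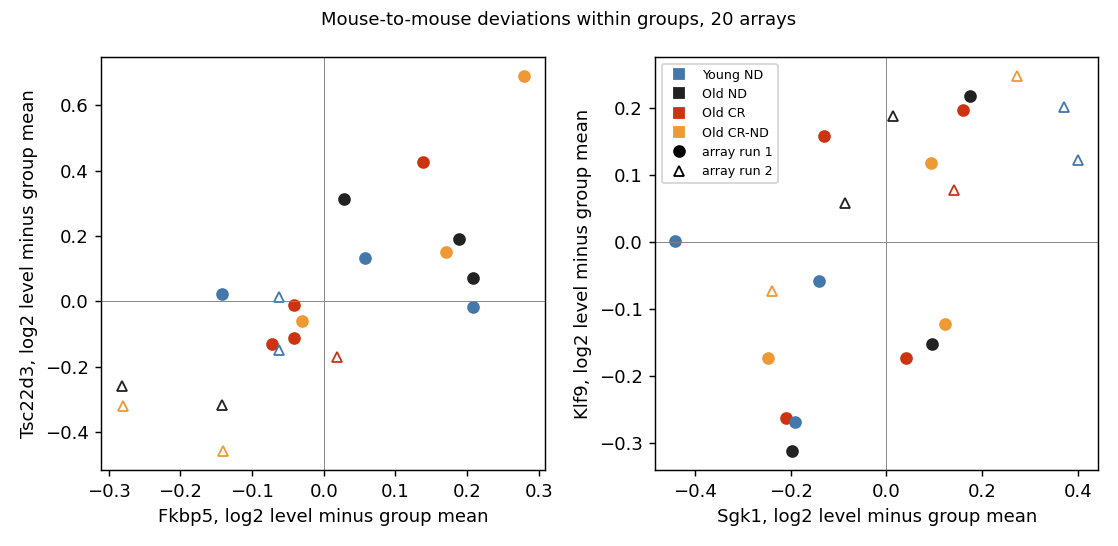
Deviation of each array from the mean of its group (log2) for Fkbp5 against Tsc22d3 and for Sgk1 against Klf9, coloured by group, with filled circles for run 1 and open triangles for run 2. The pooled r is 0.763 on the left, where most arrays of run 2 sit at the lower left, and 0.589 on the right.

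The genes whose levels over the 20 arrays were most like those of Fkbp5, among 8235 brighter than the median gene, were Smarcc2 (Pearson r = 0.892), Rasl11b (r = 0.851) and Dcdc2b (r = 0.851). Their means rose from 8.90, 7.90 and 5.68 in Young ND to 9.31, 8.66 and 6.19 in Old ND. The likeness is over group differences and mice together, and it was ranked with no test.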

How the data were processed

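Gene levels were measured on Affymetrix mouse arrays in 20 samples, 5 in each of 4 groups. The deposited values are log2 levels that were normalized by RMA with affy, per the submitters' processing notes, with no version given. Of 45141 probe sets, 28898 were annotated to 1 gene, 551 to several and 15692 to none, and only those with 1 gene were used. Symbols were updated through Entrez IDs for 28689 probe sets. Each gene was read from its brightest probe set by the mean of the arrays, which gave 17097 genes.

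One model with a mean per group was fitted to all genes in limma 3.58.1 under R 4.3.3 (lmFit, then eBayes, 16 residual degrees of freedom, no covariate). P-values were adjusted by Benjamini-Hochberg over all genes, and 0.05 was the threshold. The median standard error of a difference was 0.096. Other probe sets of a gene were tested in a fit over all 28898. The mice were biological replicates per the labels, and no arrays were identical. The members and the gene lists were chosen with earlier results of these data known. All members are described. From each list, up to 4 genes past the threshold by the smallest adjusted p were eligible for naming in a comparison, and where none passed up to 2. Other genes named from the lists, among them Slc30a5, Slc39a13 and marker genes, were added to account for counts. For a member called by the F test, the 3 genes of highest Pearson r were named. Correlations were computed with scipy 1.17.1. Motifs were searched in 250 bases before each RefSeq start. On simulated data for Old CR against Old ND with 17097 genes, the fit called 54 of 74 genes changed by 0.5. It called 63 of 68 changed by 1, 58 of 58 changed by 2, and 6 of 16897 unchanged genes. The changed genes were picked at random, and the noise was independent between genes with no run effect. Standard errors of the members ran from 0.08 (Mt1) to 0.29 (Hsd11b1), so these rates are not those of each member. Alternatives covered the probe set rule, normalization, dim genes, array weights, the run, single arrays and the threshold.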

Additional observations from a re-analysis of the deposited data

Results flagged for a closer look

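In 36 groups of 5 values (9 genes in 4 groups), the array farthest from the rest was compared with Dixon's critical value of 0.71 for its gap over the range, which chance passes in about 1 in 20 groups. The Tsc22d3 level of Old CR mouse 3 was 8.72, and the other 4 mice of its group lay between 8.12 and 8.28. The Zbtb16 level of Old CR-ND mouse 3 was 9.10, and the other 4 lay between 7.96 and 8.23. No other group held such an array, and the cause of these 2 was not tested.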

How the results depend on the processing

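No paired analysis was possible because the labels give no replicate numbers that the groups share. For single genes of the set, 0 values that passed changed sign against the reported value, 1373 alternative values kept their side of the threshold, 23 newly passed and 8 no longer passed, and 73 of 1037 values that never passed had the other sign, among them Sgk1 in Old ND against Young ND (0.26, and -0.17 within run 2). The correlation of Fkbp5 with Tsc22d3 (0.763) reversed to -0.64 within run 2, where no p could reach the threshold. Causes of the changes below were not tested, except that single runs and single arrays left out leave fewer samples and that a stricter threshold calls fewer genes.

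Genes called in Old ND against Young ND (1870) were 1049 within run 2 and 1029 at a threshold of 0.01. In Old CR against Old ND (409) they were 191 with only the 2 groups fitted, 711 with run as a block, 795 within run 1, 1 within run 2, 725 at 0.1 and 98 at 0.01. In Old CR-ND against Old ND (1) they were 3 without dim genes, 2 after quantile normalization, 0 with the 2 groups alone, 8 with the block, 22 within run 1, 0 within run 2 and 3 at 0.1. In Old CR-ND against Old CR (57) they were 235 with array weights, 120 with the block, 10 within run 1, 1 within run 2, 149 at 0.1 and 19 at 0.01. In Old CR against Young ND (2167) they were 576 within run 2 and 1225 at 0.01. In Old CR-ND against Young ND (1203) they were 795 within run 1, 621 within run 2 and 593 at 0.01. By the F test (2199) they were 684 within run 2 and 1139 at 0.01. With every probe set tested by itself the unit is the probe set, and of 28898 there were 3078 called in Old ND against Young ND (10.7%), 615 in Old CR against Old ND (2.13%), 11 in Old CR-ND against Old ND, 3538 in Old CR against Young ND (12.2%), 1891 in Old CR-ND against Young ND (6.54%) and 3505 by the F test.

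Members called in Old ND against Young ND (1) were 2 without dim genes, with the mean of all probe sets, after quantile normalization, with the block and at 0.1, 3 within run 1 and 0 within run 2. The share of all genes called there was 20.4% without dim genes, 12.4% with the mean of probe sets and 12.2% after quantile normalization. It was 15% with the block, 15.4% at 0.1, 8.74% within run 1 and 6.14% within run 2, against the 10.9% reported above. In Old CR against Old ND (0) they were 1 with the 2 groups alone, where 1.12% of all genes were called. In Old CR against Young ND (2) they were 3 with the mean of probe sets (Mt1 added) and 1 at 0.01. Members called within run 2 are not given for Old CR or the F test, as Old CR had 1 array there. In Old CR-ND against Young ND (1) they were 2 with the mean of probe sets and with the block, and 0 within run 2. By the F test (1) they were 2 without dim genes, after quantile normalization, with array weights, with the block and at 0.1, and 3 with the mean of probe sets. The share of all genes called in Old CR against Young ND was 14.5% with the mean of probe sets and 7.16% at 0.01, against 12.7%. In Old CR-ND against Young ND it was 7.97% with that mean, 10.3% with the block and 3.63% within run 2, against 7.04%. By the F test it was 23.8% without dim genes, 13.7% after quantile normalization and 14.9% with array weights, against 12.9%. It was 17.7% with the block, 17.4% at 0.1 and 14.4% with the mean of probe sets. Pairs past the threshold (2 by Pearson and 2 by Spearman) were 0 by either with the means of run subtracted. With the mean of probe sets they were 0 by Pearson and 2 by Spearman. Without the 2 arrays farthest from the median of the first gene of a pair, they were 2 by Pearson and 1 by Spearman.

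With 1 array of the compared groups left out, 201 to 498 genes were called in Old CR against Old ND, 17 to 110 in Old CR-ND against Old CR, 1 to 5 in Old CR-ND against Old ND and 790 to 1187 in Old CR-ND against Young ND. The members called then numbered 1 to 2 in each comparison with Young ND and by the F test. The values of the other Mt1, Txnip and Zbtb16 probe sets, and correlations within runs, were chosen after the data were seen. The number of arrays, 5 a group, limits the precision.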
